A study of Arabidopsis thaliana with 12 samples.

Results

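A large piece of mitochondrial DNA lies beside the centromere of chromosome 2 in *Arabidopsis thaliana*. The gene models described here are the nuclear ones with IDs from AT2G07600 to AT2G07845, each above 0 TPM in 3 libraries or more. The range holds 181 IDs in the deposited table. Of these, 119 met the rule and are called members below, 4 were above 0 in 1 or 2 libraries, and 58 were at 0 in all 12. The whole table held 24606 gene models that met the same rule, out of 40215. Among the 119 members, 101 were above 0 in every library and 117 reached 1 TPM (transcripts per 1000000 of all transcripts) in at least 3 libraries.

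RNA came from 4-day-old seedlings in 4 groups of 3 libraries each, grown in long days on Murashige and Skoog medium with sucrose. Col-0 is the wild type, with green cotyledons. The other 3 groups are all *gun1-102*, a T-DNA line in the Col-0 background with an insertion in *GUN1* (AT2G31400), sorted by the look of their cotyledons into white (*gun1W*), marbled (*gun1M*) and green (*gun1G*). All 3 mutant groups therefore rest on 1 allele and differ in the colour by which they were picked. *GUN1* encodes a plastid pentatricopeptide repeat protein that acts in signalling from plastid to nucleus. Ribosomal RNA was depleted and no poly(A) selection was made, so nuclear, mitochondrial and plastid transcripts were read together and their strand was kept.

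Plant mitochondria keep a small genome of their own, which codes for subunits of the respiratory chain and ATP synthase, for some ribosomal proteins and for factors that mature cytochrome *c*. Pieces of organelle DNA move into the nucleus during evolution, and the copy beside this centromere is a well-known recent example in Col-0. A recent copy is nearly identical to its source. Short reads from mitochondrial RNA can therefore fit nuclear gene models in it about as well as the mitochondrial ones. The mitochondrial genome has itself taken up pieces of plastid DNA, and the chromosome 2 copy carries some of these onward.

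In the TAIR10.1 reference, the inserted stretch ran over chr2:3239038-3509765, which is 270728 bases. Matches of at least 2000 bases to the mitochondrial genome, 17 in all, covered 99.59% of it at identities of 99.56 to 99.97%. They covered 72.2% of the 367808 bases of the mitochondrial genome. By position, 117 members lay inside the stretch. The other 2, AT2G07680 (*ABCC13*, an ABC transporter) and AT2G07690 (*MCM5*, a subunit of the replicative helicase), lay beyond its right end. Of the 117 inside, 92 had at least 90% of their 31-base words in the mitochondrial genome and 47 had all of them. The lowest share was 69.6% and the median 97.6%. A BLAST match of at least 90% identity over at least 100 bases was found for 115 of them, and the other 2 were AT2G07613 and AT2G07623.

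The sequences of 4 members show how closely the copies agree. They are 100-base windows from RefSeq (TAIR10.1), 5′ to 3′ along the member's strand. AT2G07732 and AT2G07739 are shown because they derive from plastid genes, *rbcL* and *ycf1*, that had passed through the mitochondrion. In both sets of 3 lines, capitals mark every position at which the copies are not all the same.
AT2G07732, chr2:3468549-3468648 (minus strand): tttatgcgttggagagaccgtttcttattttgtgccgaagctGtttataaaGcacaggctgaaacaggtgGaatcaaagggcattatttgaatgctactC
Mitochondrion, bases 165073 to 165172: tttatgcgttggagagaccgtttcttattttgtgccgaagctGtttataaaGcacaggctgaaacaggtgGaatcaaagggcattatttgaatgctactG
Plastid *rbcL*, bases 55588 to 55687: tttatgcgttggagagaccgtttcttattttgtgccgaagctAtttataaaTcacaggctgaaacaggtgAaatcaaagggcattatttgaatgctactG
AT2G07739, chr2:3495640-3495739 (minus strand): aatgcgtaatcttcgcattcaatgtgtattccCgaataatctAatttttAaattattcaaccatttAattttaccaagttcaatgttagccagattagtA
Mitochondrion, bases 42744 to 42843: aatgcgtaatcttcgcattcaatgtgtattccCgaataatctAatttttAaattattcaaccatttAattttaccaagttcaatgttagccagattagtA
Plastid *ycf1*, bases 109776 to 109875: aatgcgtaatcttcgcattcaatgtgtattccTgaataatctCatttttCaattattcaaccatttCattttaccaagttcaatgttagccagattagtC

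The window of AT2G07732 differed from the mitochondrial copy at 1 position and from the plastid copy at 4. Over its 740 exon bases, AT2G07732 was 99.73% identical to the mitochondrion, with 2 mismatches, and 96.86% identical to the plastid over 573 aligned bases. AT2G07739 was 100% identical to the mitochondrion over its 888 bases and 97.08% to the plastid over 821. The next windows are shown because no base separates the nuclear from the mitochondrial copy. They open the coding sequences of *cox3* (cytochrome *c* oxidase subunit) and *rps7* (small ribosomal subunit), and capitals mark the start codon.
AT2G07687, chr2:3312552-3312651 (minus strand), and mitochondrial *cox3*, bases 330674 to 330773: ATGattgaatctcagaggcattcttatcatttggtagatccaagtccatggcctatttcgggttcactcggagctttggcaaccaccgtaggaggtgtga
AT2G07696, chr2:3351687-3351786 (minus strand), and mitochondrial *rps7*, bases 79559 to 79658: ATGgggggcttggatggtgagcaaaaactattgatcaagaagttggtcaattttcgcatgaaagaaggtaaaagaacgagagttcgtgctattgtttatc

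AT2G07687 was 100% identical to the mitochondrial genome over all 998 of its bases. The reference sequence of such a model holds no base that tells the nucleus from the mitochondrion. Its value depends on how the quantifier divided shared reads. For the 47 members with all words in the mitochondrial genome, nuclear RNA therefore cannot be told apart from mitochondrial RNA in these TPM values. The reads themselves, and C-to-U RNA editing that could mark their source, were not examined. For the other members inside the stretch, which share part of their words, how the value divides was not tested. The 2 members outside it, *ABCC13* and *MCM5*, share no word with the mitochondrion. The statements below are about the values of the models.

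Values are given as scaled TPM, that is, TPM added up for each gene model and then scaled so that the median nuclear gene is level across libraries. The scaling factor ran from 1.21 to 1.34 for Col-0, from 0.538 to 0.691 for *gun1W*, from 0.908 to 1.16 for *gun1M* and from 1.16 to 1.27 for *gun1G*. Fold changes are differences of log2(scaled TPM + 1) from limma over 24509 gene models outside the plastid genome, which understates changes of low models. A model was called at a Benjamini-Hochberg adjusted p under 0.05 and a log2 difference of at least 1 in size. Since TPM carries no depth, it is unknown how many reads a value rests on. The sources used here do not say whether libraries of a group came from separate cultures, so p-values speak of these samples only. The spread behind an SE or p-value is not that of 1 model's libraries alone. In limma it is drawn towards a trend set by other models at a similar level. In whole seedlings, fewer cells of a type and less RNA per cell cannot be told apart.

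*GUN1* itself averaged 45.5 scaled TPM in Col-0, against 32.8 for *gun1W*, 28.7 for *gun1M* and 25.7 for *gun1G*, and its difference in *gun1W* was not called (log2 −0.48, limma adjusted p = 0.103). TPM over the whole model does not tell transcripts before the insertion from those across it. The labels give the tissue as cotyledon. All 4 cotyledon and leaf markers were high, for example *RBCS1A* (Rubisco small subunit) at 21677 scaled TPM in Col-0 and 14061 in *gun1W*. The root hair marker *PRP3* was also present, at 357 in Col-0. The other root and root hair markers listed were low there, with *EXPA7* at 4.28 and AT5G49270 at 8.25. A long RNA from chromosome 3, AT3G06365, took 0.219 to 19.5% of all TPM in single libraries, and *gun1M* replicate 3 stood below the other *gun1M* libraries in plastid TPM.

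In *gun1W*, 67 of the 119 members rose and 1 fell against Col-0, where 5.41% of all tested models were called higher and 3.16% lower, 8.58% in all. The median log2 difference of the members was 1.18, and that of all tested models −0.01. In *gun1M*, 38 members rose and none fell, beside 5.54% of all models higher and 3.92% lower (9.46% in all), with a median of 0.88. In *gun1G*, 1 member rose and none fell, beside 2.08% higher and 0.922% lower, with a median of 0.07. All 3 comparisons share the Col-0 libraries.

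**Figure D1:**
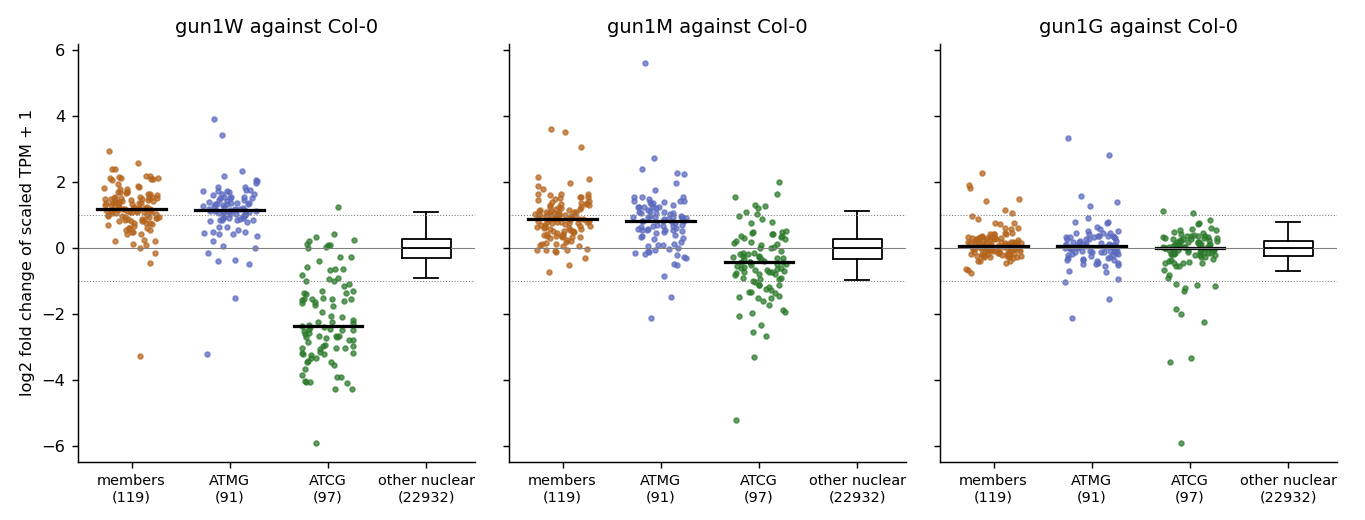
Log2 differences from Col-0 in *gun1W*, *gun1M* and *gun1G* (1 panel each). Points are the 119 members, 91 mitochondrial (ATMG) and 97 plastid (ATCG) models with a line at the median; the box of 22932 other nuclear models spans the 25 to 75 percentiles and its whiskers 5 to 95, and dotted lines lie at −1 and 1. In *gun1W* the medians were 1.18 for members, 1.16 for ATMG and −2.36 for ATCG models.

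All 3 *gun1W* libraries lay above all 3 Col-0 libraries for 90 members and below for 2, beside 19.6% and 19.2% of all tested models. For *gun1M* the counts were 77 and 1, beside 18.3% and 18.9%. For *gun1G* they were 14 (11.8%) and 6 (5.04%), beside 15.9% and 14.9%, so the members did not exceed the background there. At an unadjusted p under 0.05 in limma, 96 members (80.7%) differed in *gun1W*, beside 33.6% of all tested models, and 78 (65.5%) in *gun1M*, beside 35.5%. In *gun1G* 10 (8.40%) did, fewer than the 22.6% of all tested models.

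Between the mutant groups, 54 members were called higher and 1 lower in *gun1W* than in *gun1G*, beside 2.09% and 1.40% of all tested models (3.49% in all). The median difference was 1.19. For 82 members all 3 *gun1W* libraries lay above all 3 of *gun1G*, and for 3 below, beside 14.3% and 14.8%. The 3 were AT2G07732 and the 2 members outside the stretch.

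The scaling sets the size of these counts. Where mitochondrial models other than ATMG00280 were set to the same total in every library, an alternative chosen after seeing the data, 10 members were called higher and 2 lower in *gun1W*, and 9 higher and 1 lower in *gun1M*. The median member stood at 0.37 in *gun1W* and 0.43 in *gun1M* on that scale, and the median of all models at −0.57 and −0.32. With all mitochondrial models, ATMG00280 included, at the same total, 110 members were higher and 1 lower in *gun1W*, with a median of 2.70, and 41 higher in *gun1M*, with a median of 0.92. The median of all models stood at 1.03 and 0.04 on that scale. ATMG00280, a model with plastid *rbcL* sequence, made up 235884 of the 265887 scaled TPM of all ATMG models in Col-0 and 25975 of 86548 in *gun1W*. The size of the rise against mitochondrial transcripts thus depends on whether that model is counted among them.

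The member with the highest mean over the 12 libraries was AT2G07732, the copy of a piece of *rbcL*, which codes for the large subunit of Rubisco. Its scaled TPM was 61120, 69480 and 55679 in Col-0 and 6121, 6141 and 6842 in *gun1W*. In *gun1M* it was 47753, 50717 and 33686, and in *gun1G* 54662, 55818 and 58736. All *gun1W* and all *gun1M* libraries lay below all Col-0 libraries, and *gun1G* overlapped with Col-0. The level fell by 3.28 on the log2 scale in *gun1W* (SE 0.53, limma adjusted p = 0.00194), to 0.103 of the Col-0 mean. The difference in *gun1M* was −0.51 (adjusted p = 0.534) and in *gun1G* −0.13 (adjusted p = 0.919), and neither was called. It was the only member that fell in *gun1W*, and the call held in all 22 alternative fits, with log2 differences from −4.29 to −1.66.

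AT2G07732 made up 83.9% ± 0.952 (SD, n = 3) of the members' summed TPM in Col-0 and 83.6% ± 0.912 in *gun1G*. Its share was 69.0% ± 3.27 in *gun1M* and 19% ± 2.27 in *gun1W*. It therefore decided the direction of the sum. All 119 members together fell from 73932 ± 7452 scaled TPM (SD, n = 3) in Col-0 to 33683 ± 2461 in *gun1W*. The 118 others went the other way, from 11839 ± 559 to 27315 ± 2716, which is 2.31-fold. That sum too rests largely on few models. The 5 highest of the 118 made up 61.2% ± 0.898 of it in Col-0 and 55.8% ± 4.40 in *gun1W*. In *gun1M* the 118 others summed to 19453 ± 1343, which is 1.64-fold, and in *gun1G* to 11080 ± 1020. In TPM as deposited, all 119 members together went from 5.88% of the total in Col-0 to 5.54% in *gun1W* (0.943-fold), AT2G07732 stood at 0.214-fold and the 118 others at 4.75-fold.

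**Figure D2:**
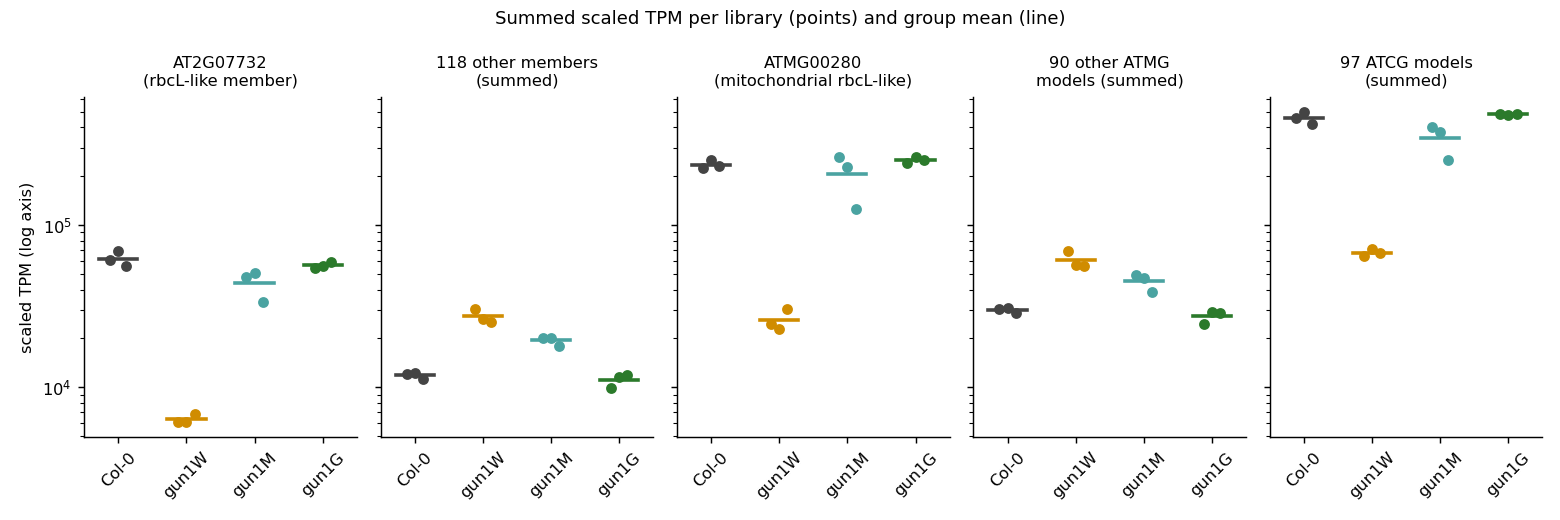
Scaled TPM per library on a log axis in the 4 groups, with a line at each group mean. The panels show AT2G07732, the 118 other members summed, ATMG00280, the 90 other ATMG models summed and the 97 ATCG models summed. AT2G07732, ATMG00280 and ATCG are lower in all *gun1W* libraries than in any Col-0 library, and both other sums are higher.

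The mitochondrial model that the reference notes match to it, ATMG00280, moved alongside. It read 224375, 250885 and 232392 scaled TPM in Col-0 and 24659, 22931 and 30334 in *gun1W*, which do not overlap. Its log2 difference was −3.19 (SE 1.04), not called at a limma adjusted p of 0.0509. That SE is drawn towards the trend of other models, as said above. The plastid *rbcL* model, ATCG00490, averaged 27770 in Col-0 and 3150 in *gun1W*, 0.113 of the former. AT2G07732 kept a ratio to ATCG00490 of 2.24 ± 0.115 in Col-0 and 2.03 ± 0.0920 in *gun1W* (SD, n = 3), with 1.97 ± 0.224 for *gun1M* and 1.97 ± 0.0844 for *gun1G*. Its ratio to ATMG00280 was 0.263 in Col-0 and 0.247 in *gun1W*, with 0.224 for *gun1M* and 0.225 for *gun1G*. While the level in *gun1W* fell to 0.103 of Col-0, the ratio to ATCG00490 stood at 0.906 of its Col-0 mean and the ratio to ATMG00280 at 0.940. Whether the reads behind the nuclear and mitochondrial models came from plastid *rbcL* RNA was not tested.

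Plastid words of 31 bases occurred in 7 members, of which 4 rose and 1 fell in *gun1W*. AT2G07739, the *ycf1* copy, had 50.23% of its words in the plastid genome, a larger share than the 33.8% of AT2G07732. Its scaled TPM was low, at 1.84, 2.30 and 1.39 in Col-0 and 5.43, 5.79 and 7.45 in *gun1W*, with no overlap. It rose by 1.35 (SE 0.18, adjusted p = 0.00066), the opposite direction to AT2G07732. AT2G07688, with 30.58% of its words in the plastid, read 0.394 to 1.53 in Col-0 and 1.35 to 6.93 in *gun1W*, and its difference of 1.08 was not called (adjusted p = 0.224). Members with plastid sequence thus moved in both directions.

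Over a mitochondrial coding gene and in its direction lay 29 members. Of these 22 rose in *gun1W* and 14 in *gun1M*, and none fell. Their medians were 1.36 in *gun1W*, 1.05 in *gun1M* and −0.01 in *gun1G*. They are grouped below by what the mitochondrial gene does.

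For complex I, which passes electrons from NADH into the respiratory chain, 9 members lay over *nad* genes. In *gun1W* 8 rose and in *gun1M* 7, with medians of 1.43 and 1.06. AT2G07786, over part of *nad1*, read 122, 120 and 102 scaled TPM in Col-0 and 395, 395 and 460 in *gun1W*. It read 291, 391 and 259 in *gun1M* and 127, 126 and 127 in *gun1G*. All *gun1W* and *gun1M* libraries lay above Col-0, and every *gun1G* library did so by a small margin. Its difference was 1.85 (SE 0.16, adjusted p = 4e-05) in *gun1W*, 1.43 (adjusted p = 0.000282) in *gun1M* and 0.15 (adjusted p = 0.632) in *gun1G*. AT2G07785, over another part of *nad1*, rose by 1.56 in *gun1W* and by 1.05 in *gun1M*. AT2G07711 (*nad5*) rose by 1.47 and 1.24 and AT2G07731 (*nad6*) by 1.43 and 1.17. AT2G07733 and AT2G07689, both over *nad2*, rose by 1.26 and 1.15 in *gun1W*, and without Col-0 replicate 1 AT2G07689 fell short of a call at 0.99. The *gun1M* call of AT2G07785 was lost at 0.99 without Col-0 replicate 3 and at 0.98 without *gun1M* replicate 1. AT2G07709 (*nad7*) rose by 1.23 in *gun1W* and 1.07 in *gun1M*. AT2G07717 (*nad4*), at 0 to 5.70 scaled TPM in single libraries, was the *nad* member not called in *gun1W*, with 1.18 and an adjusted p of 0.22.

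Mitochondrial ribosomal proteins accounted for 6 members, and all 6 rose in *gun1W*, with a median of 1.40. AT2G07675 (*rps12*) had the largest difference of them. It read 642, 512 and 496 scaled TPM in Col-0 and 529, 584 and 526 in *gun1G*. The *gun1M* libraries read 1268, 1258 and 1346, and those of *gun1W* 2241, 1948 and 1915. The 3 *gun1W* libraries were highest, *gun1M* lay between them and Col-0 without overlap, and *gun1G* overlapped with Col-0. The rise was 1.89 (SE 0.16, adjusted p = 4.1e-05) in *gun1W* and 1.24 (adjusted p = 0.000732) in *gun1M*. AT2G07715 (*rpl2*) rose by 1.79 and 1.08 (0.99, not called, without *gun1M* replicate 2), and AT2G07726 (*rps14*) by 1.29 and 1.17. AT2G07696 (*rps7*), whose start is printed above, read 67.1, 71.1 and 59.0 in Col-0 and 210, 186 and 169 in *gun1W*, a rise of 1.5. AT2G07725 (*rpl5*) rose by 1.13 and AT2G07734 (*rps4*) by 1.18 in *gun1W*, and in *gun1M* these 2 and AT2G07696 were not called, at 0.79, 0.70 and 0.93.

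Cytochrome *c* maturation genes, which act in attaching haem to cytochrome *c*, gave 5 members, of which 3 rose in *gun1W*. AT2G07771 (*ABCI5*, over *ccmC*, an ABC transporter subunit) read 49.7, 47.7 and 42.0 scaled TPM in Col-0 and 231, 197 and 203 in *gun1W*. It read 147, 149 and 118 in *gun1M* and 38.6, 36.9 and 42.1 in *gun1G*. The *gun1W* libraries were highest and *gun1M* next, without overlap, and *gun1G* overlapped with the lower end of Col-0. The difference was 2.16 (SE 0.13, adjusted p = 4.82e-06) in *gun1W* and 1.54 (adjusted p = 5.8e-05) in *gun1M*, and the *gun1W* call held in all 22 alternative fits. AT2G07723 (*ccmFC*) went from 71.4 ± 5.15 to 309 ± 7.35 (SD, n = 3), a rise of 2.1 with the smallest adjusted p of all members, 3.7e-06, and its call likewise held in all 22. AT2G07681 (*ABCI4*), a second model with *ccmC* sequence, was at 1.11 in Col-0 and rose by 1.36.

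The remaining 2 maturation members varied within groups. AT2G07768 (*ccmFN2*) read 0, 9.56 and 1.84 scaled TPM in Col-0 and 0, 13.6 and 66.1 in *gun1W*. In *gun1M* it read 50.5, 70.3 and 13.5, above every Col-0 library, yet its difference of 3.6 was not called (adjusted p = 0.0795). AT2G07783 (*ccmFN1*) was listed at 0 in all Col-0 and *gun1W* libraries and in 1 library each of *gun1M* and *gun1G*, and reached 50.4 in another *gun1M* library. Such zeros can be the quantifier's assignment and are not read as absence.

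ATP synthase gave the weakest coding group, with 1 of 4 members called in *gun1W* and a median of 0.77. AT2G07671 (*atp9*) read 1037, 1172 and 862 scaled TPM in Col-0 and 2380, 2221 and 2283 in *gun1W*, a rise of 1.17 (SE 0.20, adjusted p = 0.00251). AT2G07698 (*atp1*) read 2986, 2865 and 2802 in Col-0 and 5064, 4401 and 3741 in *gun1W*. Its libraries did not overlap, and its difference of 0.60 was not called (adjusted p = 0.0901). AT2G07741 (*atp6*) differed by 0.94 (adjusted p = 0.00673), short of the 2-fold limit, and AT2G07699 (*atp6*) by 0.20 (adjusted p = 0.417).

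AT2G07687, the *cox3* copy of complex IV, had the highest mean over the 12 libraries after AT2G07732, although AT2G07698 was higher in Col-0. It read 2334, 2372 and 2334 scaled TPM in Col-0 and 1222, 2056 and 2285 in *gun1G*. Values for *gun1W* were 7805, 4723 and 3929, and for *gun1M* 3343, 2449 and 3467. All *gun1W* and *gun1M* libraries lay above Col-0 and all *gun1G* libraries below. The rise in *gun1W* was 1.16 (SE 0.32, adjusted p = 0.028), and the call held in 14 of 22 alternative fits. It was lost without any 1 Col-0 library or without *gun1W* replicate 1 or 2, with adjusted p from 0.0595 to 0.0781 and a difference of 0.88 without *gun1W* replicate 1. The differences of 0.38 in *gun1M* and −0.39 in *gun1G* were not called.

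AT2G07727, the *cob* copy (cytochrome *b* of complex III), rose by 1.37 (adjusted p = 0.000996) in *gun1W* and 1.3 (adjusted p = 0.00172) in *gun1M*. AT2G07716, over *mttB* (a membrane transport protein), rose by 1.39 and 1.49. Of 2 members over *matR*, an intron maturase, AT2G07712 rose by 1.55 in *gun1W*, and AT2G07747 differed by 0.96 (adjusted p = 0.0116) and was not called.

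**Figure D3:**
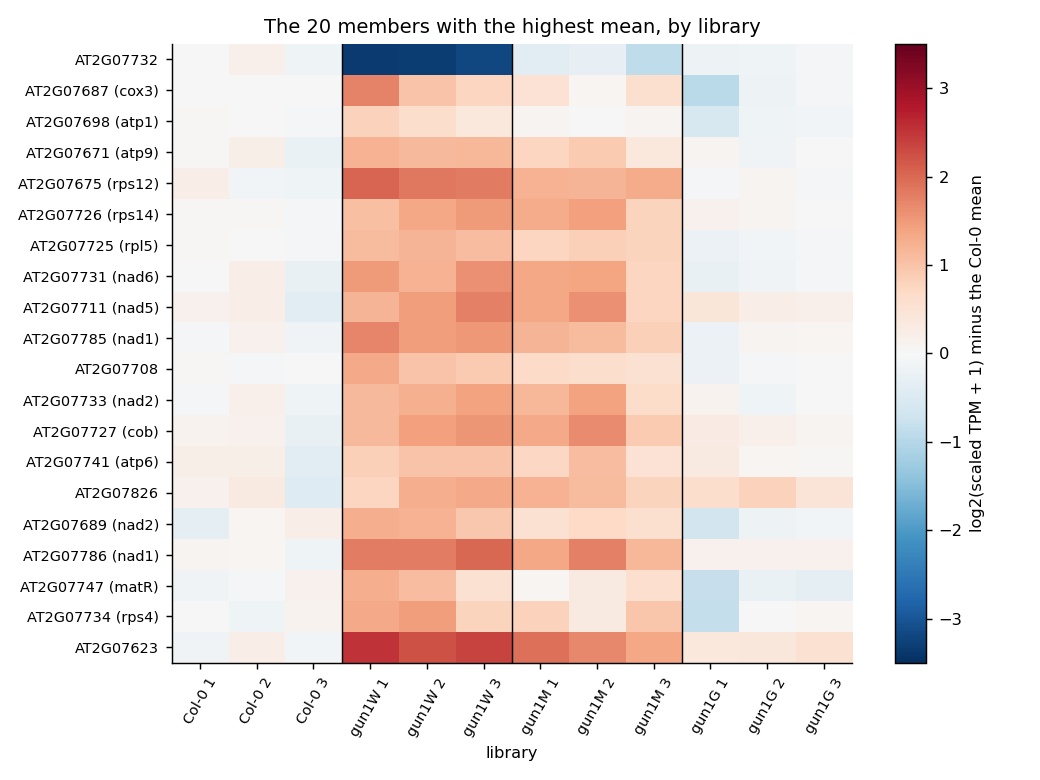
The 20 members with the highest mean, each row 1 member and each column 1 library. The colour is log2(scaled TPM + 1) minus the Col-0 mean of that member. AT2G07732 is lower in *gun1W* and the other 19 are higher there, with 16 called higher and 1 lower. AT2G07698, AT2G07741 and AT2G07747 were short of a call.

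Inside the stretch, 4 members ran antisense to a mitochondrial gene, and 1 of them, AT2G07775, rose in *gun1W* (1.37, adjusted p = 0.0037). The other 84 had no annotated mitochondrial gene over them in TAIR10.1. Among the 84, 44 rose and 1 fell in *gun1W* (AT2G07732), with a median of 1.17. Most are called uncharacterized proteins, and no role is given for those here. AT2G07623 read 60.8, 78.5 and 62.8 scaled TPM in Col-0 and 394, 319 and 347 in *gun1W*. It read 256, 216 and 173 in *gun1M* and 86.7, 87.6 and 97.1 in *gun1G*, so that every mutant library lay above every Col-0 library. It rose by 2.38 (SE 0.16, adjusted p = 9.97e-06) in *gun1W* and 1.65 (adjusted p = 0.000153) in *gun1M*, and its 0.43 in *gun1G* was not called (adjusted p = 0.143). It is also a member with no match over the BLAST limits, and 74.07% of its words were in the mitochondrial genome.

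Several large differences among the 84 were in low models. AT2G07703 read 3.32, 2.79 and 0 scaled TPM in Col-0, 17.4, 26.7 and 14.0 in *gun1W* and 21.5, 30.3 and 12.8 in *gun1M*, and rose by 2.95 (adjusted p = 0.00216) and 3.07 (adjusted p = 0.00216). AT2G07677 read 4.93, 5.29 and 3.53 in Col-0 and 33.3, 30.2 and 31.4 in *gun1W*, a rise of 2.56 (SE 0.18, adjusted p = 1.08e-05), and 1.98 in *gun1M*. AT2G07663 and AT2G07773, the latter at a mean of 45.8 in Col-0, each rose by 2.11 in *gun1W* and by 1.62 and 1.3 in *gun1M*. AT2G07656 rose by 2.40 with a wide error (SE 0.76, adjusted p = 0.0469). Its call held in 12 of 22 alternative fits, was lost without any 1 of 8 libraries, and the adjusted p reached 0.160 without *gun1W* replicate 3.

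Other members of this kind had moderate changes. AT2G07749, a model of a mitovirus RNA polymerase, rose by 1.49 in *gun1W* and 1.33 in *gun1M*. AT2G07708 and AT2G07826, the highest of the 84 in mean after AT2G07732, rose by 1.08 and 1.12 in *gun1W*. The first call was lost without *gun1W* replicate 1 (0.96) and the second without Col-0 replicate 3 (0.90). AT2G07812 was called in *gun1W* (1.95, adjusted p = 0.0242) and in *gun1M* (2.16, adjusted p = 0.0157), where 1 of its libraries overlapped with Col-0. Its *gun1W* call was lost without Col-0 replicate 1 or 2 or *gun1W* replicate 1 or 3 (1.38 to 1.90), and its *gun1M* call without Col-0 replicate 1 or *gun1M* replicate 1 or 2 (1.92 to 2.02). The lowest difference in *gun1M* was that of AT2G07632 (−0.71, adjusted p = 0.396), and the lowest in *gun1G* that of AT2G07664 (−0.76, adjusted p = 0.588), neither of them called.

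The single member called in *gun1G* was AT2G07729, an uncharacterized protein model. Its scaled TPM was 2.63, 1.75 and 1.64 in *gun1G*, against 0.275, 0.564 and 0.229 in Col-0. White seedlings (*gun1W*) gave 2.74, 3.65 and 3.24 and marbled ones (*gun1M*) 3.80, 3.89 and 2.19. All 9 mutant libraries lay above all Col-0 libraries. The rises were 1.64 in *gun1W* (adjusted p = 0.000496), 1.64 in *gun1M* (adjusted p = 0.000665) and 1.14 in *gun1G* (SE 0.21, adjusted p = 0.0132). The *gun1G* call held in 17 of 22 alternative fits and was lost, among others, when replicate 1 of *gun1G* or replicate 1 or 3 of Col-0 was left out (adjusted p = 0.0553, 0.0611 and 0.0528).

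**Figure D4:**
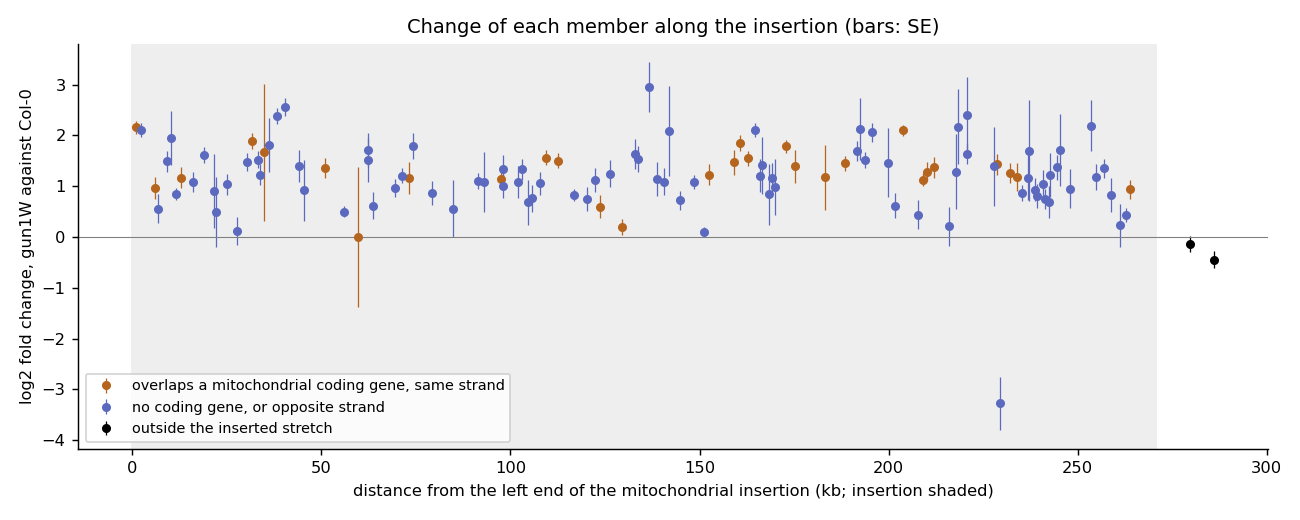
Log2 difference of *gun1W* from Col-0 with its SE for each member, against its distance in kb from the left end of the inserted stretch, which is shaded. Colours tell members over a mitochondrial coding gene in sense, other members and the 2 outside. Points above 0 run along the whole stretch, AT2G07732 stands at −3.28 and the 2 outside at −0.14 and −0.45.

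Models outside the stretch were set beside those inside. The 2 members beyond its end were not called in any comparison. *MCM5* read 2.82, 2.24 and 2.52 scaled TPM in Col-0 and 1.63, 1.77 and 1.36 in *gun1W*, a difference of −0.45 (adjusted p = 0.095) with no overlap, and *ABCC13* differed by −0.14 (adjusted p = 0.589). Of 26 tested models within 500000 bases on either side, a set chosen by coordinate after seeing the data, none rose and 1 (AT2G07080) fell in *gun1W*, with a median of −0.06. At an unadjusted p under 0.05 in limma, 7 of the 26 differed (26.9%), beside 33.6% of all tested models. Inside the stretch, 21 models with other IDs had 13 higher and a median of 1.21. The list of flanking IDs (AT2G06000 to AT2G10999 without the range), of which 22 lay within that distance, had 87 tested models with 3 higher and 2 lower.

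Sequence shared with the mitochondrion was compared next. The 47 members with all words in the mitochondrial genome had 30 higher in *gun1W* and a median of 1.37. Only 6 members inside the stretch had at least 20% of their words in neither organelle genome. Words across exon joins count among these, and their presence in chromosome 2 DNA was not checked. Of the 6 members, 1 (AT2G07623) rose, and their median was 1.08. Of 30 members with a mean of at least 100 TPM, 26 rose and 1 fell, against 15 of 43 between 1 and 10 TPM and none of 7 under 1 TPM. Low level and a share of words in neither organelle genome were not separated.

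The mitochondrial models themselves changed by about as much. Of 91 ATMG models, 51 rose and none fell in *gun1W*, 28 rose in *gun1M* and 1 (ATMG00680, from 0.299 to 2.97 scaled TPM) rose in *gun1G*. Their medians were 1.16, 0.82 and 0.05, beside 1.18, 0.88 and 0.07 for the members. Without ATMG00280, the other ATMG models summed to 30003 ± 1274 scaled TPM in Col-0 (SD, n = 3), with 60574 ± 7220 for *gun1W*, 45168 ± 5750 for *gun1M* and 27364 ± 2469 for *gun1G*. These are 2.02-fold, 1.51-fold and 0.912-fold of Col-0. The 118 members other than AT2G07732 had risen 2.31-fold and 1.64-fold and stood at 0.936-fold. In TPM as deposited, the *gun1W* value of these ATMG models was 4.15-fold, beside 4.75-fold for the 118 members.

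The ratio of the 118 members to the 90 other ATMG models needs no scaling factor. It was 0.396, 0.395 and 0.392 in Col-0 and 0.405, 0.397 and 0.413 in *gun1G*. For *gun1M* it was 0.409, 0.427 and 0.463, and for *gun1W* 0.441, 0.463 and 0.450. Every mutant library lay above every Col-0 library, by 1.14-fold in the mean of *gun1W*, 1.1-fold in *gun1M* and 1.03-fold in *gun1G*. A single ATMG model weighs heavily in this ratio. ATMG01080 (*atp9*) averaged 8244 of the 30003 scaled TPM of the ATMG side in Col-0. It averaged 11749 in *gun1W*, 4864 in *gun1M* and 4398 in *gun1G*, so its lower means in *gun1M* and *gun1G* raise the ratio there. The ratio without ATMG01080 was not computed, so the order of the groups may rest on that model. Leaving out AT2G07732 and ATMG00280 was chosen after seeing the data, and the ratio was not tested. With them, the ratio was 0.278 in Col-0 and 0.390 in *gun1W*.

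For 39 members, the reference notes gave a matching ATMG ID, and 31 of these IDs had a model in the table. The sequences of the models of a pair were not compared with each other. Models of the other 8 were not analysed here. Both models of a pair reached a mean of 1 in every group for 19 pairs. In *gun1W*, 17 of the 19 pairs had both differences above 0, 16 lay within 0.5 of each other on the log2 scale, and 1 pair had opposite signs. In *gun1M* these counts were 15, 12 and 3. The medians in *gun1W* were 1.17 for the members and 1.27 for the ATMG models. Pair by pair, the differences went together only weakly once AT2G07732 was left out. Pearson r across pairs in *gun1W* was 0.87 with it and 0.26 without it, and Spearman rho 0.43 and 0.33. For *gun1M*, r was 0.43 and 0.34, and rho 0.29 and 0.21.

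**Figure D5:**
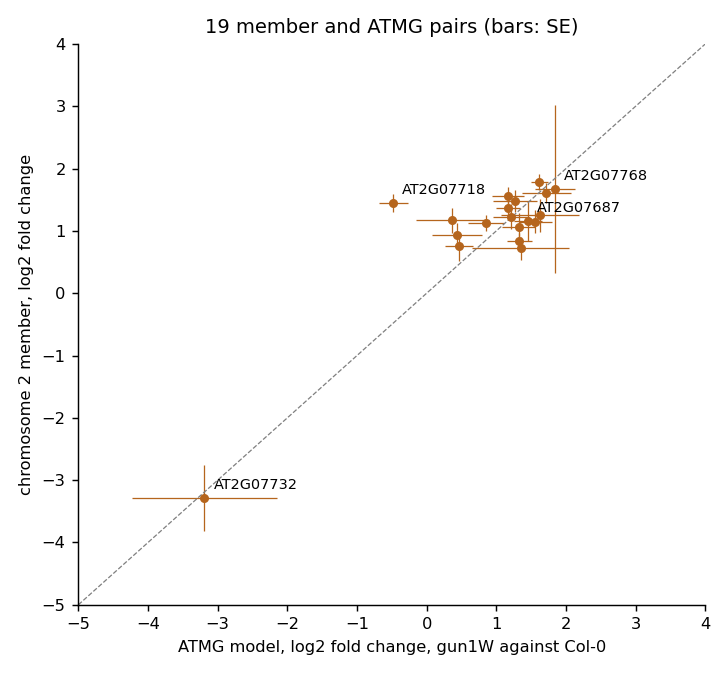
Log2 difference of *gun1W* from Col-0 for 19 pairs, the ATMG model on the x axis and the chromosome 2 member on the y axis, with SE bars and a dashed line of equality. AT2G07732 with ATMG00280 lies at −3.28 and −3.19, and AT2G07718 at 1.45 is the member whose ATMG model (−0.48) has the other sign. Pearson r across the pairs was 0.87, and 0.26 without AT2G07732.

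Which of the 2 models stood higher, and by how much, differed from pair to pair. What part the division of shared reads or model length has in this was not tested. AT2G07687 averaged 2347 scaled TPM in Col-0 and its mitochondrial *cox3* model ATMG00730 only 497. For *atp9* the order was the reverse, with 1024 for AT2G07671 and 8244 for ATMG01080. AT2G07698 stood at 2885 while the *atp1* model ATMG01190 stood at 0.0252. AT2G07696 stood at 65.7 while the *rps7* model ATMG01270 averaged 2.80. That mean came from Col-0 replicate 3 alone, and ATMG01270 averaged 0 in *gun1W*, *gun1M* and *gun1G*. The nuclear model was the higher of the 2 in 5 of the 19 pairs. Among the 31 pairs, 5 ATMG models were under 0.01 TPM in all 12 libraries, although the member was above 0.

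Summing a pair takes out the division between its 2 models only as far as their lengths agree, since TPM is set by length. Those lengths were not compared, and a division with other models remains. AT2G07741, for one, has 94.5% of its words in another member, and AT2G07732 shares 33.8% with the plastid. The sum of AT2G07687 and ATMG00730 was 2.40-fold higher in *gun1W* than in Col-0, that of AT2G07785 and ATMG01275 (*nad1*) 2.39-fold, and that of AT2G07727 and ATMG00220 (*cob*) 2.34-fold. AT2G07689 and ATMG01320 (*nad2*) gave 2.73-fold. The ATP synthase pairs had smaller sums, with 1.52-fold for AT2G07671 and ATMG01080 (*atp9*), 1.53-fold for AT2G07698 and ATMG01190 (*atp1*) and 1.60-fold for AT2G07741 and ATMG00410 (*atp6*). The *atp9* sum varied widely in *gun1W*, at 14043 ± 6546 scaled TPM against 9267 ± 613 in Col-0 (SD, n = 3). It stood at 0.702-fold of Col-0 in *gun1M* and at 0.583-fold in *gun1G*. AT2G07768, whose own libraries varied so much, gave 3.78-fold together with ATMG00960 (*ccmFN2*). AT2G07732 and ATMG00280 gave 0.109-fold. In TPM as deposited the ratios of these pairs are higher, for example 4.87-fold for the *cox3* pair, 3.03-fold for the *atp9* pair and 0.227-fold for AT2G07732 and ATMG00280.

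Plastid models moved the other way. Of 97 ATCG models, fitted alone with the same factors, 72 (74.2%) fell and none rose in *gun1W*, with a median of −2.36. In *gun1M* 18 (18.6%) fell and 7 (7.22%) rose, with a median of −0.43, and in *gun1G* 1 fell and 1 rose (1.03% each), with a median of 0.00. Against *gun1G*, 68 (70.1%) fell in *gun1W*. The summed ATCG level was 458658 ± 37676 scaled TPM in Col-0 and 67396 ± 3273 in *gun1W* (SD, n = 3), 0.147-fold, or 0.306-fold in TPM as deposited. The sum of the 118 members stood at 0.0259 of the plastid sum in Col-0 and at 0.407 in *gun1W*, 15.7-fold higher. In these values, AT2G07732 went with the plastid models and the other 118 members, in sum, with the mitochondrial ones.

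Nuclear genes with related roles were read from short lists. Of 10 subunits of the mitochondrial ATP synthase with nuclear IDs, AT2G07698 included, none was called by limma in *gun1W*, and 4 had an unadjusted p under 0.05 (median 0.04), which 33.6% of all tested models had. Of 3 organelle RNA polymerases none was called and 1 had such a p (median −0.31). Of 8 genes of the MCM helicase and replication, *MCM5* included, none was called and 5 had such a p (median −0.33). Of 11 genes of heterochromatin silencing none was called and 7 had such a p (median −0.33). In *gun1M* none of these lists held a call, with medians of −0.14, −0.22, −0.24 and −0.15. Genes at such a p numbered 3, 0, 1 and 4 there, beside 35.5% of all tested models. In *gun1G* none held a call either, with medians of 0.03, −0.04, 0.38 and 0.09. Genes at such a p numbered 1, 0, 5 and 2 there, beside 22.6% of all tested models. The marker lists of cotyledon and leaf mesophyll (4 genes) and shoot meristem (2 genes) had no call in *gun1W*, with medians of −0.68 and −0.37 and with 2 and 1 genes at such a p. Of 3 root and root hair markers, *PRP3* fell in *gun1M*, from 357 to 101 scaled TPM, and their median was −0.41 in *gun1W*. The part of tissue make-up in the members' values was not tested.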

How the data were processed

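RNA was read in 12 libraries of 4 groups, named by their labels. The authors quantified transcripts with Salmon on the AtRTD3 transcriptome and deposited TPM, whose total is 1000000 in every library. The submitters' processing notes also name Trimmomatic, FastQC, STAR and TAIR10, without versions. How Salmon divided reads between identical transcripts was not examined. Depth and counting error are unknown.

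The TPM of all transcripts with 1 gene ID was added up. Of the members, 101 had 1 transcript. Each library was scaled by the median log2 ratio over 12490 nuclear models with at least 1 TPM in all libraries. A limma fit (version 3.58.1, R 4.3.3, with a trend) took log2(scaled TPM + 1) of all 12 libraries at once, with Benjamini-Hochberg adjustment over 24509 models. The 97 plastid models were fitted alone. The fit was tested on simulated data.

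Member sequences came from RefSeq TAIR10.1 and were compared with the organelle genomes by words of 31 bases (also 21 and 75) and BLAST 2.17.0. At 21 bases 106 and at 75 bases 67 members inside the stretch had at least 90% of their words in the mitochondrion, and at 98% identity 114 had a match. The transcript sequences that Salmon used may differ from TAIR10.1. A member was set over a mitochondrial gene at 50 or more shared bases. Tables were handled with Python 3.11.15, pandas 2.3.3 and numpy 2.4.6.

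The members and lists were chosen with earlier results of these data known. Named members are the 20 highest, up to 20 calls per comparison with Col-0 by smallest adjusted p, the 3 largest increases and 3 largest decreases of each comparison among members with a mean of at least 1 TPM, and members without a mitochondrial match. Other names were chosen with their values in view. The lists were ATMG and ATCG models, chromosome 2 flanks, MCM helicase and replication, ATP synthase, organelle RNA polymerases, heterochromatin silencing and markers of cotyledon and leaf mesophyll, root and root hair, and shoot meristem. Alternatives were 0.1 or 0.5 added before the log, filters at 1 TPM, other scalings, a replicate block, the share of AT3G06365 as a covariate, each library left out, and joined models added.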

Additional observations from a re-analysis of the deposited data

Results flagged for a closer look

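Some models of the range were not counted as members because their name joins several gene IDs or because they were above 0 in 1 or 2 libraries. The joined models were in the limma fit. They are listed here because they exceeded every Col-0 library, or because Col-0 was at 0. No explanation was tested. AT2G05245-AT2G07636 averaged 5.36 scaled TPM in *gun1W* and 6.92 in *gun1M*, with 0 to 1.08 in Col-0, and was called higher in both (2.11, adjusted p = 0.000815, and 2.40, adjusted p = 0.000533). AT2G07669-AT2G07678 averaged 48.8 in *gun1W* and 48.4 in *gun1M*, with 12.8 to 18.9 in Col-0, and was called in both (1.59, adjusted p = 0.00174, and 1.51, adjusted p = 0.00280). AT2G07723-AT2G07756-AT2G07815 averaged 43.1 in *gun1W*, with 12.6 to 17.6 in Col-0, and was called in *gun1W* (1.36, adjusted p = 0.0287). AT2G07742-AT2G07771 averaged 1.86 in *gun1G* and was listed at 0 in Col-0, and was not called (adjusted p = 0.0873). AT2G07756-AT2G07815 averaged 0.862 in *gun1M*, with 0.0871 to 0.587 in Col-0, and was not called (adjusted p = 0.0565). Of the IDs above 0 in 1 or 2 libraries, 3 were listed at 0 in Col-0, with highest values of 0.00549 (AT2G07660), 0.478 (AT2G07691) and 0.0966 (AT2G07845).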

How the results depend on the processing

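The count of called members was 68 in *gun1W*, 38 in *gun1M* and 1 in *gun1G* against Col-0, and 55 in *gun1W* against *gun1G*. Added values, filters and nuclear totals left the counts of *gun1W* and *gun1M* within 1.5 times. With TPM as deposited they were 107 in *gun1W* and 100 against *gun1G*, and with all mitochondrial models summed to the same total 111 and 109. With mitochondrial models other than ATMG00280 at the same total, added after seeing the data, they were 12 in *gun1W* (10 higher, 2 lower), 10 in *gun1M*, 2 in *gun1G* and 6 against *gun1G* (4 higher, 2 lower). The 2 lower ones were AT2G07732 and AT2G07690 in both comparisons. These scalings move the median of all models in *gun1W* against Col-0 by 0.59, 1.03 and −0.57 on the log2 scale. In *gun1G* the count was 2 with either filter at 1 TPM (AT2G07812 was added), and 0 with all mitochondrial models at the same total or with AT3G06365 as a covariate.

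Leaving out 1 library gave 57 to 69 calls in *gun1W*, 28 to 42 in *gun1M*, 0 to 1 in *gun1G* and 49 to 57 against *gun1G*. Without Col-0 replicate 1 or *gun1G* replicate 1 the count in *gun1G* was 0. The replicate block gave 66, 37, 1 and 56. Same-numbered libraries correlated at −0.3 to 0.317, so the numbers were not taken as pairs. By coordinate instead of ID, added after seeing the data, the counts were 81, 46, 1 and 69.

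The members' summed scaled TPM without the highest member was 11839, 27315, 19453 and 11080 for Col-0, *gun1W*, *gun1M* and *gun1G*, and as deposited 58762, 55393 and 55479 in Col-0, *gun1W* and *gun1G*. With 1 library left out it was 70035 to 77458, 32265 to 34467, 59785 to 69463 and 65944 to 68937 in Col-0, *gun1W*, *gun1M* and *gun1G*. The ratio to the ATMG sum was 0.0446, 0.316, 0.0822 and 0.0397 without the highest member, and 0.395, 0.452, 0.433 and 0.405 without AT2G07732 and ATMG00280. Its leave-one-out ranges were 0.272 to 0.289, 0.381 to 0.399, 0.237 to 0.285 and 0.237 to 0.248. Among 50 named members, no called value changed sign, 102 values lost their call under an alternative and 53 gained one. Unknown depth limits what low models can show.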
